A study of Mus musculus with 6 samples.

Results

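The 10 genes described here encode apolipoproteins and lipoprotein assembly factors of the liver: Apoa1, Apoa2, Apoa4, Apoa5, Apob, Apoc3, Apoe, Apom, Mttp and Tm6sf2. They are 10 of the 18193 genes that the array reads with a probe set of 1 gene symbol. Their members are all probe sets that the platform annotation assigns to 1 of these symbols and to no other gene, 17 of 45037. The RNA came from whole liver of C57BL/6 mice injected into a vein with an AAV8 vector, made from an adeno-associated virus that transduces hepatocytes well. The vector carried either Nfkbiz, the gene of the nuclear protein IκBζ, or luciferase, which serves as the control. Mice of both groups started CDAHFD, a choline-deficient high-fat diet, 4 weeks after the injection and ate it for 4 weeks. The control livers are thus also a fatty liver model, and the comparison holds no liver without this diet or without a vector. Blood was flushed out with PBS before the liver was taken. Each group has 3 arrays. Not given in the sources used here: promoter of the vector, sex and age of the mice, feeding state and hour of sampling. The comparison shows how RNA levels of lipoprotein genes differ between the 2 vectors on this diet.

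Lipoproteins carry triglyceride and cholesterol through blood in particles held together by apolipoproteins. In the hepatocyte, apolipoprotein B is loaded with lipid in the endoplasmic reticulum by the microsomal triglyceride transfer protein, the product of Mttp, and TM6SF2 helps to lipidate the nascent particle, which leaves the cell as VLDL. ApoA-I and apoA-II are the main proteins of HDL, apoM carries sphingosine-1-phosphate on HDL, apoC-III slows and apoA-V promotes the breakdown of triglyceride in blood, and apoE is the ligand by which the liver takes up remnant particles. A diet without choline limits phosphatidylcholine, the main phospholipid of the VLDL surface, and is known for impairing VLDL export.

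Promoter sequences are shown for the members whose windows hold a motif of a forkhead factor, of HNF4 or of E-box proteins. Values of forkhead genes and of Hnf4a are given further on, while no single gene of an E-box protein is. RefSeq's promoter table of the build GRCm38.p6 matched 8 of the 10 genes by symbol, with 12 windows, and Apoc3 and Tm6sf2 did not match. The 250 bases before each annotated start were searched on both strands for 7 motifs: the nuclear receptor half-site AGGTCA, the HNF4-type CAAAGNNCA, the HNF1 half-site GTTAAT, the forkhead motif GTAAACA, the E-box CACGTG, the C/EBP-type TTGCNNAA and TATAAA. Capitals mark every match to any of the 7, and no match overlaps another in the windows printed.
Apoa2 promoter, chr1:171224804-171225053, plus strand: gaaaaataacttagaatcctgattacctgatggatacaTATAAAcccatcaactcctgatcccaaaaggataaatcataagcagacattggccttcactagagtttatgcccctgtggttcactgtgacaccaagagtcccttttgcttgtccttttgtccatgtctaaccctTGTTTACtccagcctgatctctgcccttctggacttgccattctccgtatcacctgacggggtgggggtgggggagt
Apoa4 promoter, chr9:46240594-46240843, plus strand: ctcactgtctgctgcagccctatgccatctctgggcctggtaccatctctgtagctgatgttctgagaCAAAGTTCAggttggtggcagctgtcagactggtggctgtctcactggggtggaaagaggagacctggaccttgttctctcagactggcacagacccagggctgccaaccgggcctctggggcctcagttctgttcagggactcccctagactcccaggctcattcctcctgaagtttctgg
Apoa5 promoter, chr9:46268358-46268607, plus strand: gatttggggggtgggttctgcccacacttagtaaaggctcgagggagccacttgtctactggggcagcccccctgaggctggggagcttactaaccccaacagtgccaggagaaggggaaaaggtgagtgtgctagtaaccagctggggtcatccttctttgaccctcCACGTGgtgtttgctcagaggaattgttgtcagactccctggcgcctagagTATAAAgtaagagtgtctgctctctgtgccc
Apob promoter, chr12:7977427-7977676, plus strand: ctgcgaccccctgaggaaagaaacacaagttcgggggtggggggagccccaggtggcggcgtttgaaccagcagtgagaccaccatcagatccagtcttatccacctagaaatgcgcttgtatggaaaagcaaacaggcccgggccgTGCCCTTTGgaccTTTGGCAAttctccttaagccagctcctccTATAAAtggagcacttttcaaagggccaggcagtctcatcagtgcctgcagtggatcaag
In the Apoa2 window the forkhead match lies on the other strand (TGTTTAC) and begins 77 bases before the start. The Apoa4 window holds CAAAGTTCA on the gene's own strand, 182 bases before the start. In the Apob window the HNF4-type match on the other strand (TGCCCTTTG) begins 103 bases before the start, with a C/EBP-type match 90 bases and TATAAA 60 bases before it. The Apoa5 window has an E-box 82 bases and TATAAA 31 bases before the start. Of the 12 member windows, 2 hold the HNF4-type motif, 1 the forkhead motif and 2 the E-box, the last 2 being overlapping windows of Apoa5. Of all 32851 windows of this length, 5.49% hold the HNF4-type motif, 3.17% the forkhead motif and 6.02% the E-box. A match describes letters and is not a measured binding site.

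No member gene passed the test in either direction. Of the 17 member probe sets, 0 passed limma at an adjusted p below 0.05, where 0.0703% of the 27022 probe sets tested did (0.0185% higher and 0.0518% lower in the Nfkbiz livers). All 17 passed the filter on dim probe sets. At an unadjusted p below 0.05, 1 member was lower and 0 were higher, where 10.6% of all probe sets passed, 6.47% lower and 4.14% higher. Of the 5805 probe sets at least as bright as the dimmest member, 16.8% passed at this threshold. With 1 probe set per gene, the brightest, 0 of the 10 genes passed in limma, against 0.225% of the 13312 genes tested. By this choice of probe set 0 had an unadjusted p below 0.05, against 12.0%. The log2 difference, AAV8-Nfkbiz minus AAV8-luciferase, was positive for 10 of the 17 probe sets, against 47.0% of all. Its median was 0.03 over the members and -0.02 over all probe sets tested. The sign of the members' median was not kept: it was -0.08 after cyclic loess normalization, -0.015 without luciferase replicate 1 and -0.014 without Nfkbiz replicate 2. It was 0.076 without luciferase replicate 2, 0.0061 without luciferase replicate 3, 0.011 without Nfkbiz replicate 1 and 0.073 without Nfkbiz replicate 3. For 14 of the 17 it lay within 0.15 of 0. The other 3 were a probe set of Apob, at -0.54, and both probe sets of Apom, at 0.31 and 0.24.

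Intensities of the groups did not overlap in 1 member probe set, lower in the Nfkbiz livers, where 16.7% of all probe sets tested had no overlap (9.69% lower and 7.03% higher). With 1 probe set per gene, the brightest, 0 of the 10 genes had groups apart, against 18.0% of all genes. Apob is represented there by its brighter probe set, not by the one whose groups lay apart. The count of 1 member probe set was 3 without luciferase replicate 1, 2 without luciferase replicate 3 and 5 without Nfkbiz replicate 3. With 1 array left out, 2 arrays stand against 3, and groups of any probe set lie apart more readily. The share over all probe sets was not computed for these counts, so they cannot be set against the 16.7%.

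The precision of the differences can be read from their 95% intervals, which rest on 3 arrays per group and on variance that limma shares across probe sets. For 14 of the 17 members, 82.4%, the whole interval lay between -0.5 and 0.5 on the log2 scale. The same held for 17.6% of all probe sets tested and for 48.4% of the 5805 that were at least as bright as the dimmest member. Neither set is matched to the members in brightness, since 11 of the 17 lay at or above the 99th percentile on every array. The intervals that reached further were those of the dimmer Apob probe set and of both Apom probe sets.

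**Figure D1:**
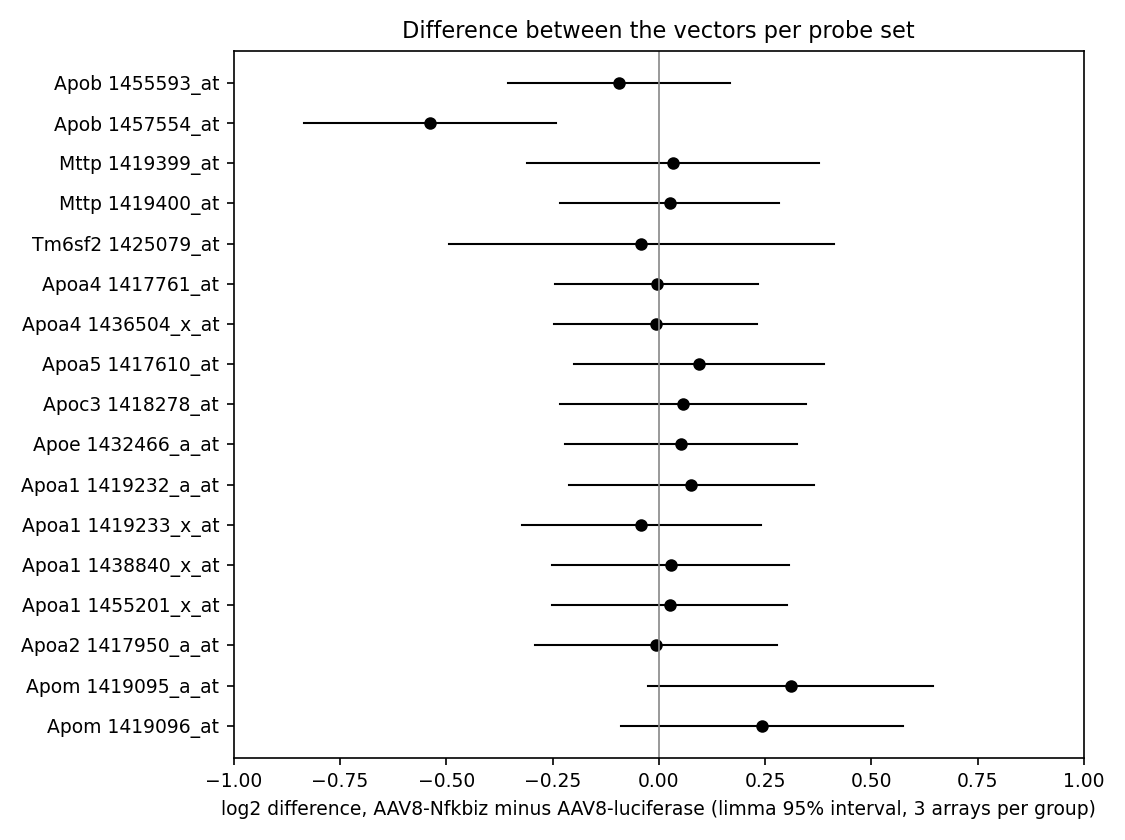
Log2 difference of each member probe set on the x axis, AAV8-Nfkbiz minus AAV8-luciferase, as a point with limma's 95% interval from 3 arrays per group. The interval of 1 probe set, Apob 1457554_at, lies wholly below 0, and its limma adjusted p over all probe sets is 0.238.

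Among the assembly genes, the 2 probe sets of Apob, the gene of the structural protein of VLDL, had log2 differences of unlike size. The brighter, 1455593_at, had MAS5 intensities of 37923, 42086 and 41557 in the control livers and of 40452, 35013 and 38527 in the Nfkbiz livers. The groups overlapped, and the log2 difference was -0.09 ± 0.12 (SE, limma adjusted p = 0.811). The dimmer, 1457554_at, had 5141, 4256 and 4812 in the control livers and 3387, 2889 and 3507 in the Nfkbiz livers. Every Nfkbiz array lay below every control array. The means were 4736 ± 447 and 3261 ± 328 (SD, n = 3), 1.45-fold higher in the controls. This log2 difference of -0.54 ± 0.13 (SE) had an interval from 0.560-fold to 0.845-fold and did not pass over all probe sets (limma adjusted p = 0.238). It lay between -0.61 and -0.45 when any 1 array was left out. The value of the gene depends on the probe set taken. In the fit by genes Apob had -0.54 ± 0.14 by its most variable probe set (SE, limma adjusted p = 0.25). By the mean of its probe sets it had -0.32 ± 0.12 (limma adjusted p = 0.413).

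Within each array, the log2 ratio of the dimmer over the brighter Apob probe set was -2.88, -3.31 and -3.11 in the control livers and -3.58, -3.60 and -3.46 in the Nfkbiz livers. The ratios did not overlap, and their means differed by -0.45. The exact two-sided permutation p was 0.1, the smallest that 3 arrays against 3 can give, and 0.333 after adjustment over the 10 ratios computed between probe sets of 1 gene. Of the 10 ratios, 2 others also reached 0.1, both between probe sets of Apoa1. The stretch of the Apob transcript that each probe set reads is not part of the data used here.

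**Figure D2:**
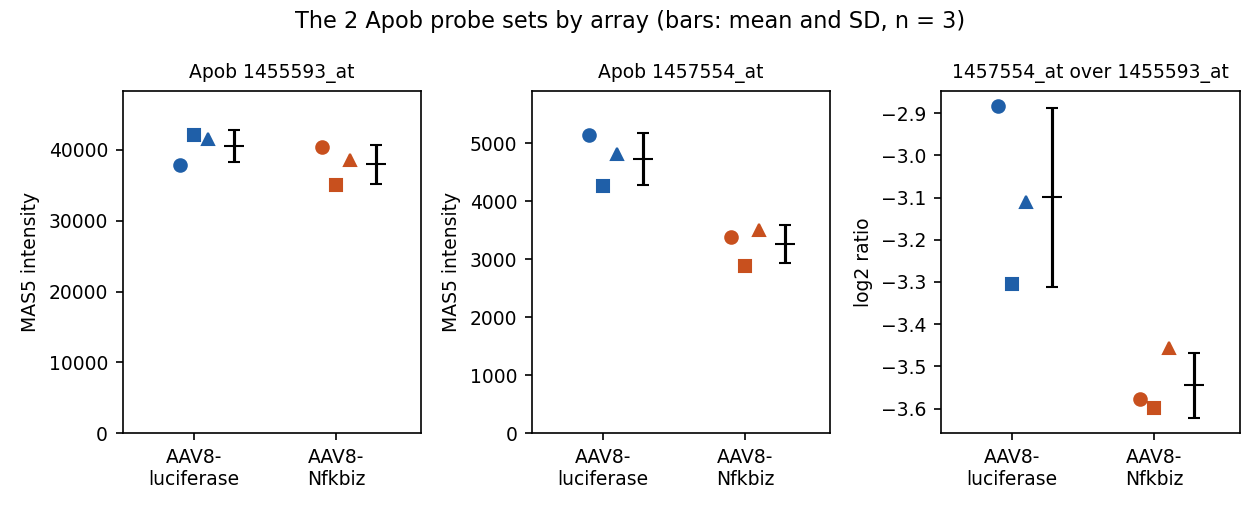
The 2 probe sets of Apob by array, as MAS5 intensity on linear axes from 0 and, on the right, as the log2 ratio of the dimmer over the brighter within each array. Circle, square and triangle are replicates 1, 2 and 3, bars give mean and SD (n = 3), and the dimmer probe set and the ratio are lower on all 3 Nfkbiz arrays.

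Mttp, whose product transfers lipid onto apoB, had log2 differences near 0 on both probe sets. The brighter, 1419400_at, had 4391, 4525 and 4835 in the control livers and 4910.1, 4454 and 4633 in the Nfkbiz livers. The groups overlapped, the largest value was 1.12 times the smallest, and the log2 difference was 0.03 ± 0.12 (SE, limma adjusted p = 0.956), with an interval from 0.852-fold to 1.22-fold. The dimmer, 1419399_at, had 2709.9, 3169 and 2144 against 2652, 2708 and 2746. Control arrays lay on both sides of the closely spaced Nfkbiz arrays, with a difference of 0.03 ± 0.15 (limma adjusted p = 0.958).

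Tm6sf2, whose product helps to lipidate VLDL, had 980.2, 1243 and 1218 in the control livers and 906, 1511 and 995 in the Nfkbiz livers. The Nfkbiz group held both the lowest and the highest value. The means were 1147 ± 145 and 1137 ± 327 (SD, n = 3), and the log2 difference was -0.04 ± 0.20 (SE, limma adjusted p = 0.961). Its interval, from 0.710-fold to 1.33-fold, was the widest of the 17 on the log2 scale.

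The apolipoproteins of triglyceride metabolism overlapped between the groups. Apoa5, whose product promotes lipolysis, had 26684, 32722 and 33712 in the control livers and 33796, 35008 and 30314 in the Nfkbiz livers. It differed by 0.09 ± 0.13 on the log2 scale (SE, limma adjusted p = 0.833), an interval from 0.871-fold to 1.31-fold. Apoc3, whose product slows lipolysis, had 35159.6, 41562 and 42917 against 40739, 45550.3 and 37989. It differed by 0.06 ± 0.13 (limma adjusted p = 0.905), an interval from 0.851-fold to 1.27-fold. In both genes luciferase replicate 1 was the lowest of the 6 arrays and Nfkbiz replicate 2 the highest.

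Apoa4, the gene of an apolipoprotein of triglyceride-rich particles, was nearly flat over the 6 arrays on the deposited scale. Probe set 1417761_at had 20940.1, 22004 and 21933 in the control livers and 21686, 21708 and 21256 in the Nfkbiz livers. Probe set 1436504_x_at had 25645, 26495 and 25524 against 25916, 26197 and 25152. On each the largest value was 1.05 times the smallest, a log2 range of 0.07 and 0.08, where the median range of all probe sets tested was 0.82. These ranges ranked 3 and 4 from the narrowest of 27022. The log2 SDs within a group ran from 0.017 to 0.040 on these probe sets. The larger SEs given next thus rest largely on the variance that limma shares across probe sets. The log2 differences were -0.0048 ± 0.11 and -0.0075 ± 0.11 (SE, limma adjusted p = 0.991 and 0.986), with intervals from 0.844-fold to 1.18-fold and from 0.843-fold to 1.17-fold. They were -0.112 and -0.106 after quantile normalization (limma adjusted p = 0.667 and 0.689). After cyclic loess normalization they were -0.105 and -0.116 (limma adjusted p = 0.706 and 0.691).

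Apoe, the gene of the remnant ligand, had 36907, 44526 and 41839.9 in the control livers and 42014, 45278 and 40320.1 in the Nfkbiz livers. The groups overlapped, with means of 41091 ± 3864 and 42537 ± 2520.1 (SD, n = 3). The difference was 0.05 ± 0.12 on the log2 scale (SE, limma adjusted p = 0.906), an interval from 0.859-fold to 1.25-fold. Macrophages also make apoE. Of 20 markers of Kupffer cells and macrophages tested, 0 passed over all genes in limma, and 11 were higher and 0 lower in the Nfkbiz livers at an unadjusted p below 0.05. Their summed intensity ran from 48573 to 68226 in the control livers and from 71124 to 88428 in the Nfkbiz livers. Their part in the Apoe value was not tested. In whole liver RNA, more cells of a type and more RNA per cell cannot be told apart.

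Of the HDL genes, Apoa1 and Apoa2 overlapped between the groups and Apom had the largest positive differences among the members. The 4 probe sets of Apoa1, the gene of the main HDL protein, differed by 0.08, -0.04, 0.03 and 0.03 on the log2 scale, each with an SE of 0.12 or 0.13 (limma adjusted p from 0.865 to 0.961). The brightest, 1419232_a_at, had 52443, 59936 and 61495 in the control livers and 62059.9, 67209.8 and 54392 in the Nfkbiz livers, so that Nfkbiz replicate 3 lay among the controls. It was the brightest of all probe sets on each of the 6 arrays. The other 3 carry the suffix x_at, which marks probes that can also match other transcripts. Apoa2, the gene of the other major HDL protein, had 44606, 53099 and 48758 against 50104, 52386 and 43373. The groups overlapped, with a difference of -0.0069 ± 0.13 (SE, limma adjusted p = 0.99).

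Apom 1419095_a_at had 11798, 12719.9 and 15035 in the control livers and 16976, 18609 and 13624 in the Nfkbiz livers. Nfkbiz replicates 1 and 2 lay above every control array and replicate 3 among them. The log2 difference of 0.31 ± 0.15 (SE) did not pass (limma adjusted p = 0.5), and its interval ran from 0.983-fold to 1.56-fold. The other Apom probe set, 1419096_at, had 8112, 10077 and 9129.7 against 11442, 12147 and 8889.9. The arrays fell as on the brighter one, with a difference of 0.24 ± 0.15 (limma adjusted p = 0.598). Without Nfkbiz replicate 3 the differences were 0.44 and 0.38, with limma adjusted p-values of 0.39 and 0.43, and without Nfkbiz replicate 2 they were 0.21 and 0.15 (limma adjusted p = 0.798 and 0.862).

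**Figure D3:**
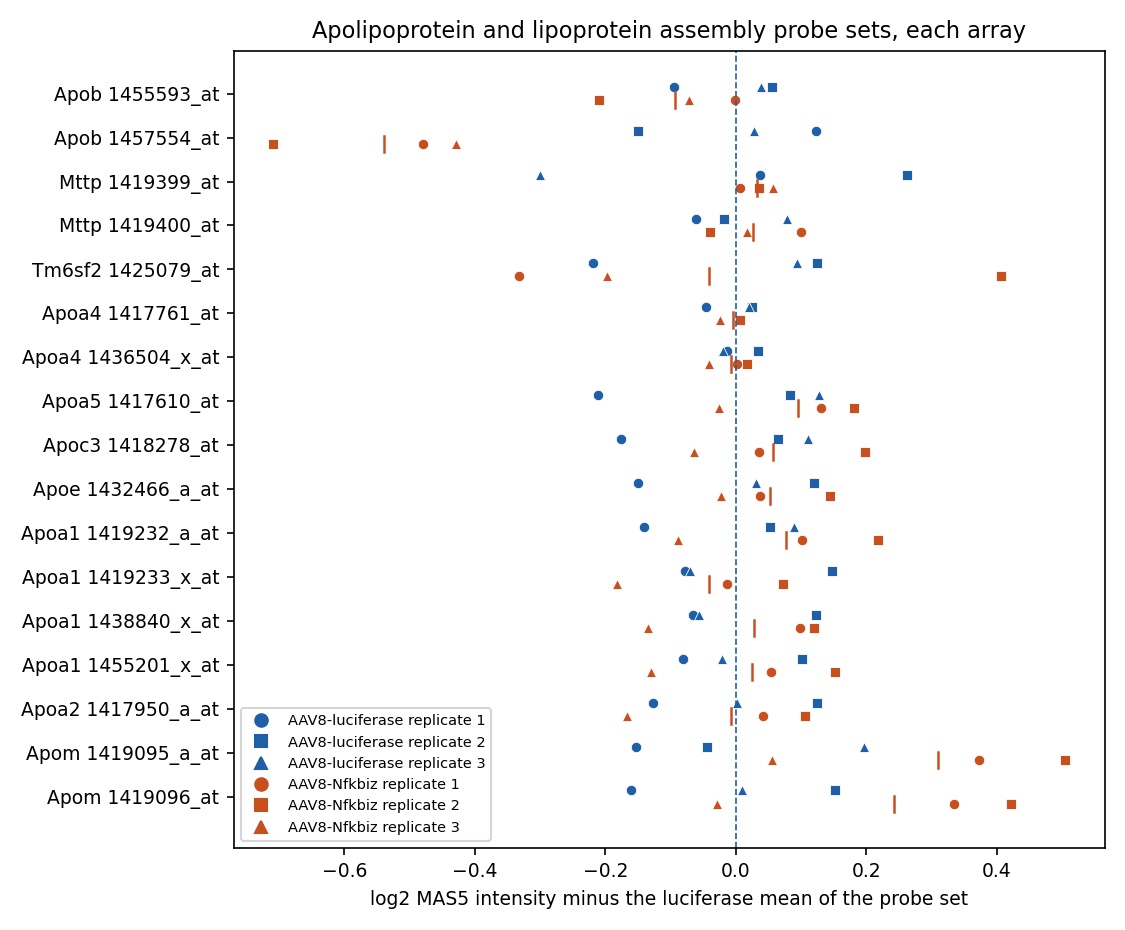
Log2 MAS5 intensity of each member probe set on each array, minus the mean of the 3 luciferase arrays for that probe set (blue: luciferase, dashed line: their mean; orange: Nfkbiz, orange bar: their mean; symbols: replicates). The groups overlap in every row except Apob 1457554_at, and both Apoa4 rows are narrow.

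Among the members, the lowest and highest arrays fell on few of the 6. Of 11 probe sets of 7 genes that lay at or above the 99th percentile of intensity on every array, luciferase replicate 1 was the lowest for 5, Nfkbiz replicate 3 for 5 and Nfkbiz replicate 2 for 1. The highest array was luciferase replicate 2 for 6 of these and Nfkbiz replicate 2 for 5. The members' mean log2 deviation was -0.10, 0.07 and 0.01 on the control arrays and 0.02, 0.09 and -0.09 on the Nfkbiz arrays. The median of the 439 other probe sets in the brightest 1% of the array deviated by -0.17, -0.02 and 0.04 and by 0.07, 0.13 and -0.06. By these means and medians luciferase replicate 1 was the lowest and Nfkbiz replicate 2 the highest in both sets. The part of the upper end of the intensity scale in the small differences of the bright members was not tested. The members' median SD within a group was 0.13 on the log2 scale as deposited and 0.07 after quantile normalization.

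Likeness between probe sets is given as the root mean square difference of their centred log2 values over the 6 arrays, as a description. Over the 136 pairs of member probe sets it ran from 0.02 to 0.49, with a median of 0.14. The most alike were the 2 probe sets of Apoa4, and the least alike were Apob 1457554_at and Apom 1419095_a_at. Apoa1, Apoc3, Apoa4 and Apoa5 stand next to each other in this order on chromosome 9. The brightest Apoa1 probe set was 0.03 from Apoc3 and 0.05 from Apoa5, while the flat Apoa4 probe sets were 0.10 and 0.11 from Apoc3. Apoa2, on chromosome 1, was 0.06 from this brightest Apoa1 probe set, further than Apoc3 and Apoa5. From Apoa1 1455201_x_at, Apoa2 was 0.03 away, Apoc3 0.07 and Apoa5 0.09. Apob 1457554_at had the widest range of the members, and the genes nearest to it were Flii (0.04), Fam47e (0.05) and Irf2bp2 (0.05). With 1 probe set per gene the widest range was that of Tm6sf2, and the nearest genes were 4921525D07Rik (0.07), Ybey (0.08) and Stat2 (0.09).

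**Figure D4:**
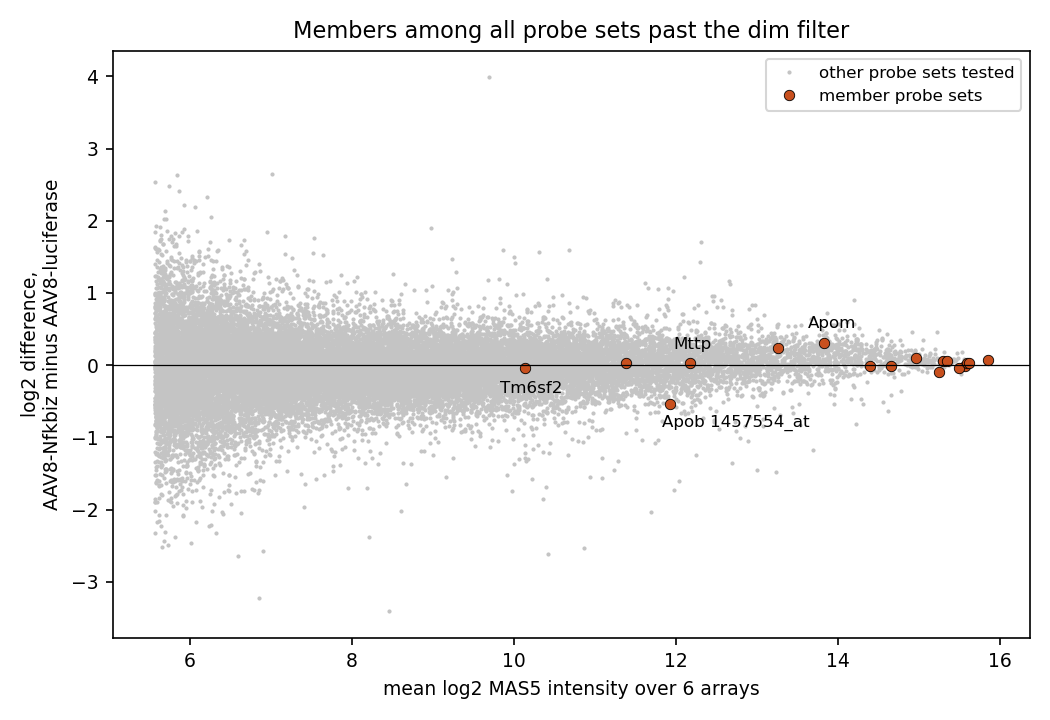
Mean log2 MAS5 intensity over the 6 arrays on the x axis and log2 difference, AAV8-Nfkbiz minus AAV8-luciferase, on the y axis for the 27022 probe sets past the dim filter (grey) and the 17 members (orange). Most members lie at the bright end within 0.15 of 0, and Apob 1457554_at, at -0.54, is furthest from 0.

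The vector's gene was higher as labelled: Nfkbiz 1448728_a_at had 221, 229.5 and 179.7 in the control livers and 4424, 4073 and 2006 in the Nfkbiz livers (15.8-fold, limma adjusted p = 0.000901), while its other 2 probe sets did not pass (limma adjusted p = 0.603 and 0.594). On the second principal component luciferase replicate 3 was at -45.1 and the others between 3.11 and 21.1, and without it 0 members passed in limma. Hepatocyte markers were present at high intensity in both groups, and 0 of 8 passed over all genes in limma, with 1 lower at an unadjusted p below 0.05. Of 10 lymphocyte and neutrophil markers 1 rose, the protease gene Gzma, with 4 higher and 0 lower at an unadjusted p below 0.05 and a median difference of 0.46. Of 12 stellate cell, 10 endothelial, 4 cholangiocyte and 3 enterocyte or acinar markers 0 passed in limma. At an unadjusted p below 0.05, 4 stellate markers were lower, 3 endothelial markers higher and 1 lower, 1 cholangiocyte marker lower and 0 of the last list different. The median differences of these lists were -0.34, 0.33, -0.30 and 0.11. Of 14 clock genes tested 2 fell, Usp2 (-1.85 ± 0.16 SE, limma adjusted p = 0.00276) and Per1 (-1.36 ± 0.20, limma adjusted p = 0.0329), with 1 higher and 9 lower at an unadjusted p below 0.05 and a median difference of -0.58. The part of cell makeup and of sampling time in the values of lipoprotein genes was not tested.

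Beyond the 10 members, 7 lists of lipoprotein genes held 123 tested genes, of which 2 fell and 0 rose over all genes. At an unadjusted p below 0.05, 6 were higher and 26 lower in the Nfkbiz livers, 26% of them against 12.0% of all genes. The lists were chosen with earlier results of these data known, so this share is a description and not an independent result. Of the 26 lower, 15 were genes of transcription factors and coactivators, not of lipoprotein proteins. Both genes that fell were in the list of transcription factors and coactivators that act on apolipoprotein genes. Foxo3, a forkhead factor of the insulin pathway, had 1614, 1765 and 1561 in the control livers and 447, 509 and 815 in the Nfkbiz livers. Its log2 difference was -1.53 ± 0.21 (SE, limma adjusted p = 0.0261), with no overlap. Ppargc1a, the gene of the coactivator PGC-1α, had 723, 994 and 678 against 405, 279.8 and 327. The groups did not overlap, and the difference was -1.24 ± 0.20 (limma adjusted p = 0.0449).

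With 1 array left out, most of these calls were lost, while the log2 differences stayed well below 0. They ran from -1.79 to -1.35 for Foxo3 and from -1.38 to -1.07 for Ppargc1a. Foxo3 had limma adjusted p-values of 0.0557, 0.0891 and 0.0584 without luciferase replicate 1, 2 or 3 and of 0.0815, 0.106 and 0.00618 without Nfkbiz replicate 1, 2 or 3. Ppargc1a did not pass without any 1 of the 6 arrays (limma adjusted p from 0.0665 to 0.201). Fitted among all probe sets, the brightest Foxo3 probe set passed with limma adjusted p = 0.0445 and the brightest of Ppargc1a did not (0.0759). The other Foxo3 probe set past the dim filter had a smaller difference and did not pass (-0.81 ± 0.14 SE, limma adjusted p = 0.0844). A dimmer one, at -2.62, lay below the filter and was not tested. The other Ppargc1a probe sets had -0.90, -1.28, -0.71 and -1.08 and did not pass (limma adjusted p = 0.254, 0.0644, 0.275 and 0.182). Groups did not overlap on any of these.

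Of the 30 transcription factor genes tested, 15 were lower and 0 higher at an unadjusted p below 0.05, and the list's median difference was -0.36. Next in p after Foxo3 and Ppargc1a was Nr0b2, the gene of the bile acid-responsive repressor SHP (-1.24 ± 0.24, limma adjusted p = 0.0953), which passed without luciferase replicate 3 (-1.55 ± 0.16, limma adjusted p = 0.00888). Foxo1 and Hnf4a were chosen after their values were seen, as genes of factors whose motifs were searched. Foxo1, a forkhead factor that acts on Mttp and Apoc3 in the insulin response, had 791, 1019 and 1246 against 681, 574 and 593 on its brightest probe set. These did not overlap, and the difference was -0.71 ± 0.18 (limma adjusted p = 0.183). On a further 2 Foxo1 probe sets it was -0.93 and -0.92 (limma adjusted p = 0.0844 for both). On the dimmest Foxo1 probe set it was -0.33 (limma adjusted p = 0.815). Hnf4a, the gene of a nuclear receptor that drives many apolipoprotein genes, had 8587, 10112 and 9741 against 8861, 6888 and 6723. Its groups overlapped (-0.35 ± 0.14, limma adjusted p = 0.363). On the dimmer Hnf4a probe sets the difference was -0.07, -0.30 and -0.01 (limma adjusted p = 0.925, 0.626 and 0.989 over all probe sets).

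In the list of apoB lipidation and VLDL secretion, 0 of 32 genes passed in limma, and 5 were higher and 4 lower at an unadjusted p below 0.05 (median 0.02). The smallest p-values were those of Sec31a, a coat component of vesicles leaving the endoplasmic reticulum (-0.49 ± 0.13, limma adjusted p = 0.187), Mia3, the gene of the large-cargo export factor TANGO1 (-0.43 ± 0.13, limma adjusted p = 0.254), and Smlr1 (0.62 ± 0.20, limma adjusted p = 0.257). Of 9 genes of apoB mRNA editing and apoB degradation 0 passed in limma, and 1 was lower at an unadjusted p below 0.05 (median -0.07). That gene was Rbm47, a cofactor of the editing enzyme (-0.49 ± 0.13, limma adjusted p = 0.196), and next came Syncrip (-0.23 ± 0.14) and Derl1 (0.14 ± 0.13).

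Of 17 other apolipoprotein genes 0 passed in limma, 1 was lower at an unadjusted p below 0.05 and 13 had a positive difference (median 0.12). The smallest p-values were those of Apol7a (-0.51 ± 0.15, limma adjusted p = 0.218), of Apool, whose product is mitochondrial (0.28 ± 0.15), and of Saa1, an acute phase gene whose product binds HDL (0.35 ± 0.20). Among 12 lipoprotein uptake receptors 0 passed in limma and 2 were lower at an unadjusted p below 0.05 (median -0.0077). These were Lrp1, a remnant receptor gene (-0.66 ± 0.21, limma adjusted p = 0.258), and Vldlr (-0.73 ± 0.28, limma adjusted p = 0.339), with Lrp6 next (-0.33 ± 0.16).

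For HDL biogenesis and remodelling 0 of 14 genes passed in limma, with 1 higher and 1 lower at an unadjusted p below 0.05 (median 0.05). These were Pcolce2, which enhances procollagen processing (1.09 ± 0.28, limma adjusted p = 0.185), and Scarb1, the HDL receptor gene (-0.28 ± 0.12, limma adjusted p = 0.382). The endothelial lipase gene Lipg came next (-0.63 ± 0.31). For lipolysis in blood 0 of 9 passed in limma and 2 were lower at an unadjusted p below 0.05 (median -0.18). These were Sel1l, which lipoprotein lipase needs to leave the endoplasmic reticulum (-0.76 ± 0.15, limma adjusted p = 0.0997), and the lipase inhibitor gene Angptl4 (-0.56 ± 0.18, limma adjusted p = 0.251). Gpihbp1, the gene of the lipase anchor on capillaries, had 0.65 ± 0.31.

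**Figure D5:**
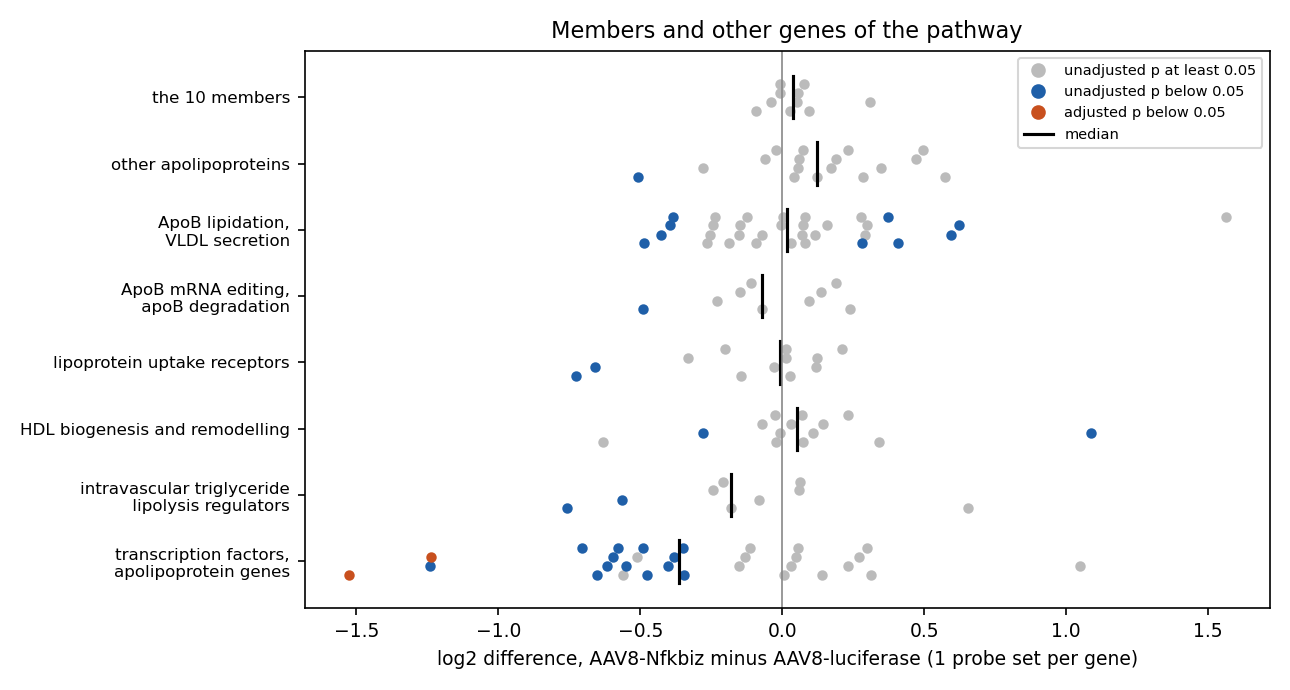
Log2 difference per gene on the x axis, AAV8-Nfkbiz minus AAV8-luciferase, for the 10 members and 7 lists of lipoprotein genes, 1 probe set per gene (black bar: median; blue: unadjusted p below 0.05; orange: adjusted p below 0.05 over all genes; grey: the rest). The members' median is 0.04 and that of the transcription factor list -0.36.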

How the data were processed

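Liver RNA, 100 ng per sample, was labelled and hybridised to 6 one-colour 3' arrays, per the labels' protocols. The authors deposited MAS5 intensity values on a linear scale, made with MAS5 per the submitters' processing notes (not given in the sources used here: release). The mean of the middle 96% lay between 495.4 and 496.5 on every array, which shows a shared scaling. Intensities were log2-transformed here with no pseudocount. Of 45037 probe sets, 34945 have 1 symbol in the platform annotation, 932 several, and 9160 are not listed and unnamed here. The lowest 40% by mean intensity (under 47.4) were left out. The other 27022 probe sets, and 13312 genes by their brightest probe set for the lists, were fitted with limma 3.58.1 in R 4.3.3 (eBayes with intensity trend, Benjamini-Hochberg adjustment over all), a fit tested on simulated data. The labels give separate samples only, so p-values rest on spread between them, which may be technical. Those of limma, with its SEs and intervals, also rest on a variance trend over all probe sets or genes fitted. The number of arrays limits precision. Members and lists were chosen with earlier results of these data known. Named genes are all members and, per list, those past the threshold and the 3 of smallest p, Nfkbiz, and the 3 genes most alike in pattern; Foxo1 and Hnf4a were added after their values were seen. Alternatives were other normalizations, a pseudocount, filters, variance priors, array weights, a replicate block, other probe sets per gene and leaving out arrays.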

Additional observations from a re-analysis of the deposited data

How the results depend on the processing

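The members kept 0 calls under every alternative run. Of their 255 values over 15 settings, 212 kept their direction, 2 were exactly 0 (Apoa1 1419232_a_at and 1455201_x_at after quantile normalization) and 41, none of them called, changed sign; the cause was not tested. After cyclic loess these were Apoa1 1419232_a_at (-0.073), 1438840_x_at (-0.11) and 1455201_x_at (-0.12), Apoa5 (-0.024), Apoc3 (-0.075), Apoe (-0.080) and Mttp 1419400_at (-0.0035). Array weights gave Apoa1 1438840_x_at -0.0052, 1455201_x_at -0.0036 and Mttp 1419399_at -0.069. Median centring gave Apoa2 0.027, Apoa4 1417761_at 0.029 and 1436504_x_at 0.026. Quantile normalization gave Apoc3 -0.0056 and Tm6sf2 0.0013. Leaving out 1 array gave Apoa1 1419233_x_at -0.098 to 0.033, 1438840_x_at -0.018 to 0.11 and 1455201_x_at -0.038 to 0.10, Apoa2 -0.070 to 0.073, Apoa4 1417761_at -0.028 to 0.0079 and 1436504_x_at -0.020 to 0.0095, Apoa5 -0.010 to 0.16, Apoc3 -0.032 to 0.12, Apoe -0.023 to 0.11, Mttp 1419399_at -0.12 to 0.16 and 1419400_at -0.012 to 0.065, and Tm6sf2 -0.26 to 0.10. Apob 1457554_at stayed between -0.61 and -0.45 and Apom 1419095_a_at between 0.21 and 0.44. Members with groups apart numbered 2 after loess and 1 to 5 without 1 array, with no share over all probe sets computed beside these counts. Pathway genes past the threshold, 2 as reported, numbered 1 after quantile normalization, 1 after loess and 1 with no dim filter (Foxo3 each time), 0 without the intensity trend, 3 with array weights (Nr0b2 added) and 0 to 1 without 1 array. The 1 was Nr0b2 without luciferase replicate 3 and Foxo3 without Nfkbiz replicate 3. The calls also changed with the probe set taken per gene. By the mean of a gene's probe sets Foxo3 passed (limma adjusted p = 0.0115) and Ppargc1a did not (0.131). By the most variable probe set Ppargc1a did not pass (limma adjusted p = 0.0726), and Foxo3 fell below the dim filter. With the replicate number as a block, whose arrays do not deviate together (r = -0.06, 0.07 and -0.03), 1 pathway gene and 0 members passed. Calls over all probe sets ran from 0 without the trend to 77 with array weights (19 as reported), and over all genes from 0 to 62 (30 as reported).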
